A study of Rattus norvegicus with 4 samples.

Results

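The genes described here encode the subunits of the mitochondrial respiratory chain and the ATP synthase. They were taken by symbol: every gene with a named probe whose symbol starts with Ndufa, Ndufb, Ndufc, Ndufs, Ndufv, Sdha to Sdhd, Uqcr, Cox4 to Cox8 or Atp5. This gave 53 of the 8927 genes with a named probe, measured by 61 probes: 13 subunits of complex I, 3 of complex II, 5 of complex III, 13 of complex IV and 14 of complex V, with 4 assembly factors (Ndufaf3, Ndufaf4, Ndufaf7 and Sdhaf2) and the ATPase inhibitor Atp5if1, which share the prefixes but are not subunits. The same prefixes fit 122 protein-coding symbols of the rat gene table, so the arrays name fewer than all of the chain's nuclear genes, and none of the 13 protein-coding genes of mitochondrial DNA had a named probe.

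The cells came from Fisher 344 rats. The 4 groups were neural stem cells derived from the hippocampus, neural stem cells derived from the olfactory bulb, and neurons derived in culture from each of these stem cells, with no other treatment or genotype named. Total RNA of 3 independent experiments was pooled for each group, labelled with Cy3 and hybridised to 1 Agilent array per group, so no value has a spread between cultures and no difference between single arrays has a replicate check or a test. How the stem cells were turned into neurons is not given in the sources used here.

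The respiratory chain sits in the inner mitochondrial membrane. Complexes I and II pass electrons from NADH and succinate to ubiquinone, complex III passes them on to cytochrome c, and complex IV uses them to reduce oxygen; the proton gradient built by complexes I, III and IV drives the ATP synthase, complex V. Most subunits are encoded in the nucleus and imported, and several complex IV subunits exist as isoforms that differ between tissues. Adult neurons are known to depend on respiration more than proliferating stem cells do, which makes the neuron against stem cell contrast the main comparison here.

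A level is the log2 of the background-subtracted spot signal minus the 75th percentile of its array, taken from a gene's brightest probe, and levels of different genes cannot be set against each other because probes differ in efficiency. Between 60.2% and 74.0% of probes were well above background on the 4 arrays. Repeat spots of a probe on an array had a median SD between 0.0612 and 0.0939 log2 units, which measures spots and not cultures. The stem cell arrays shared 1 slide and the neuron arrays the other, so cell state and slide cannot be told apart; the sources were compared within a slide. Neuron markers moved in both directions. Stmn2, a tubulin-binding protein of growing axons, was higher in neurons by at least 5.83 in hippocampal and 5.01 in olfactory bulb cells, and Snap25, a synaptic fusion protein, by 3.97 and 3.08. The brightest marker probes, Uchl1 and Mapt, were lower in neurons, with differences of -3.56 and -4.26 for Uchl1 and -3.62 and -6.44 for Mapt. The log2 summed level of the 10 neuron markers with a probe was 7.06 and 6.40 on the hippocampal and olfactory bulb stem cell arrays and 3.81 and 2.25 on the corresponding neuron arrays, a sum that bright probes carry. The median marker level was -2.69 and -0.44 in stem cells and -1.40 and -2.13 in neurons, and the number well above background was 9 and 8 in stem cells and 10 in both neuron cultures. Of 6 stromal markers, 1 was well above background on each stem cell array (Col3a1, Dcn, Lum, Pdgfrb and Tagln were not) and 6 on each neuron array, and the summed stromal level went from -3.34 and -3.00 to 8.57 and 9.01. Of 7 astrocyte markers, 3 and 4 were well above background on the stem cell arrays and 7 on both neuron arrays. Of 7 microglia markers, 3 were well above background on each stem cell array and 6 on each neuron array (Itgam was not), and their summed level went from -0.33 and -0.28 to 2.76 and 2.83. Oligodendrocyte markers moved in both directions. The summed level of 6 of them went from 8.14 and 7.56 to 5.01 and 5.40, while their median level went from -0.04 and -0.18 to 0.23 and 0.38. In hippocampal cells 3 of the 5 measured were lower in neurons, and in olfactory bulb cells 3 of 6. The 7 cell cycle genes had a summed level of 8.19 and 7.90 in stem cells and 5.31 and 5.33 in neurons. "Neurons" below therefore means the cultures labelled so. The part of these cell types and of proliferation in the differences below was not tested, and in pooled cultures a change in the mix of cells and a change of RNA per cell cannot be told apart.

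Respiratory chain genes were detected in every group. Of the 53 genes, 50 were well above background on all 4 arrays. Cox8c, the testis isoform of a small complex IV subunit, was not well above background on any array. Cox8b, the isoform of the same subunit found in heart and skeletal muscle, was well above background on the olfactory bulb neuron array alone. Uqcrq, a small subunit of complex III, was well above background on every array but that of hippocampal neurons.

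**Figure D1:**
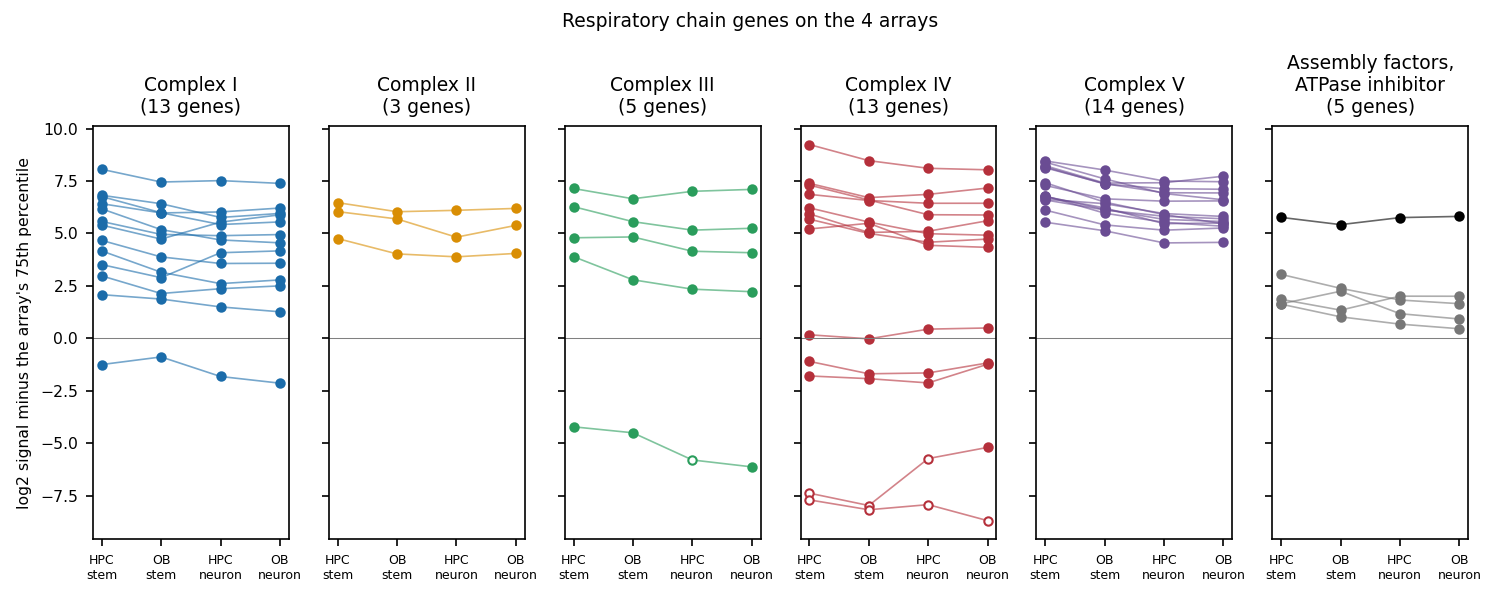
Level of each respiratory chain gene on the 4 arrays, in log2 signal minus the array's 75th percentile, with 1 line per gene and 1 panel per complex (HPC, hippocampus; OB, olfactory bulb; stem, neural stem cells). Open circles are spots not well above background; lines join the arrays of 1 gene and stand for no error, since each group has 1 array. Most lines step down from the hippocampal stem cell array to the other 3, and the 14 complex V lines run close to parallel.

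In hippocampal cells most respiratory chain genes were lower in neurons than in stem cells. The median difference of the 51 genes measured was -0.87 log2 units, against -0.32 for the 6658 genes measured in all. Of the 51 respiratory chain genes 47 lay below 0, as did 3913 of the 6658. The median of the respiratory chain genes stayed below 0 under all 8 alternatives, the smallest being -0.21 with quantile normalization. At 2-fold or more, 21 genes (41.2%) were lower in neurons, where 26.8% of all genes were, and 0 were higher, where 21.9% of all genes were. These 21 were 5 subunits of complex I, 1 of complex II, 3 of complex III, 4 of complex IV and 7 of complex V, with the assembly factor Ndufaf3. The genes also differed less from each other than genes in general: their interquartile range was 0.66 log2 units, against 1.85 for all genes.

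In olfactory bulb cells the shift was smaller with this scaling, but not with spike-in scaling, where the medians were -0.43 in hippocampal and -1.37 in olfactory bulb cells with 6 and 37 genes lower. The medians of all genes with spike-in scaling were 0.12 and -0.90. With the 75th percentile scaling the olfactory bulb median of 52 genes was -0.34, against 0.08 for 7022 genes, although with quantile normalization the median of the 52 turned to 0.024. Of the 52 genes 36 lay below 0, as did 3260 of the 7022. At 2-fold or more, 5 genes (9.62%) were lower in neurons, where 20.0% of all genes were: Uqcrq, Ndufaf4, Ndufs4, Cox7b and Atp5mc1. Another 2 (3.85%), Ndufa10l1 and Ndufv2, were higher, where 26.9% of all genes were. The interquartile range of the respiratory chain genes was 0.87, against 1.92 for all genes. Relative to the median of all genes, the respiratory chain lay at -0.55 in hippocampal and -0.42 in olfactory bulb cells.

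**Figure D2:**
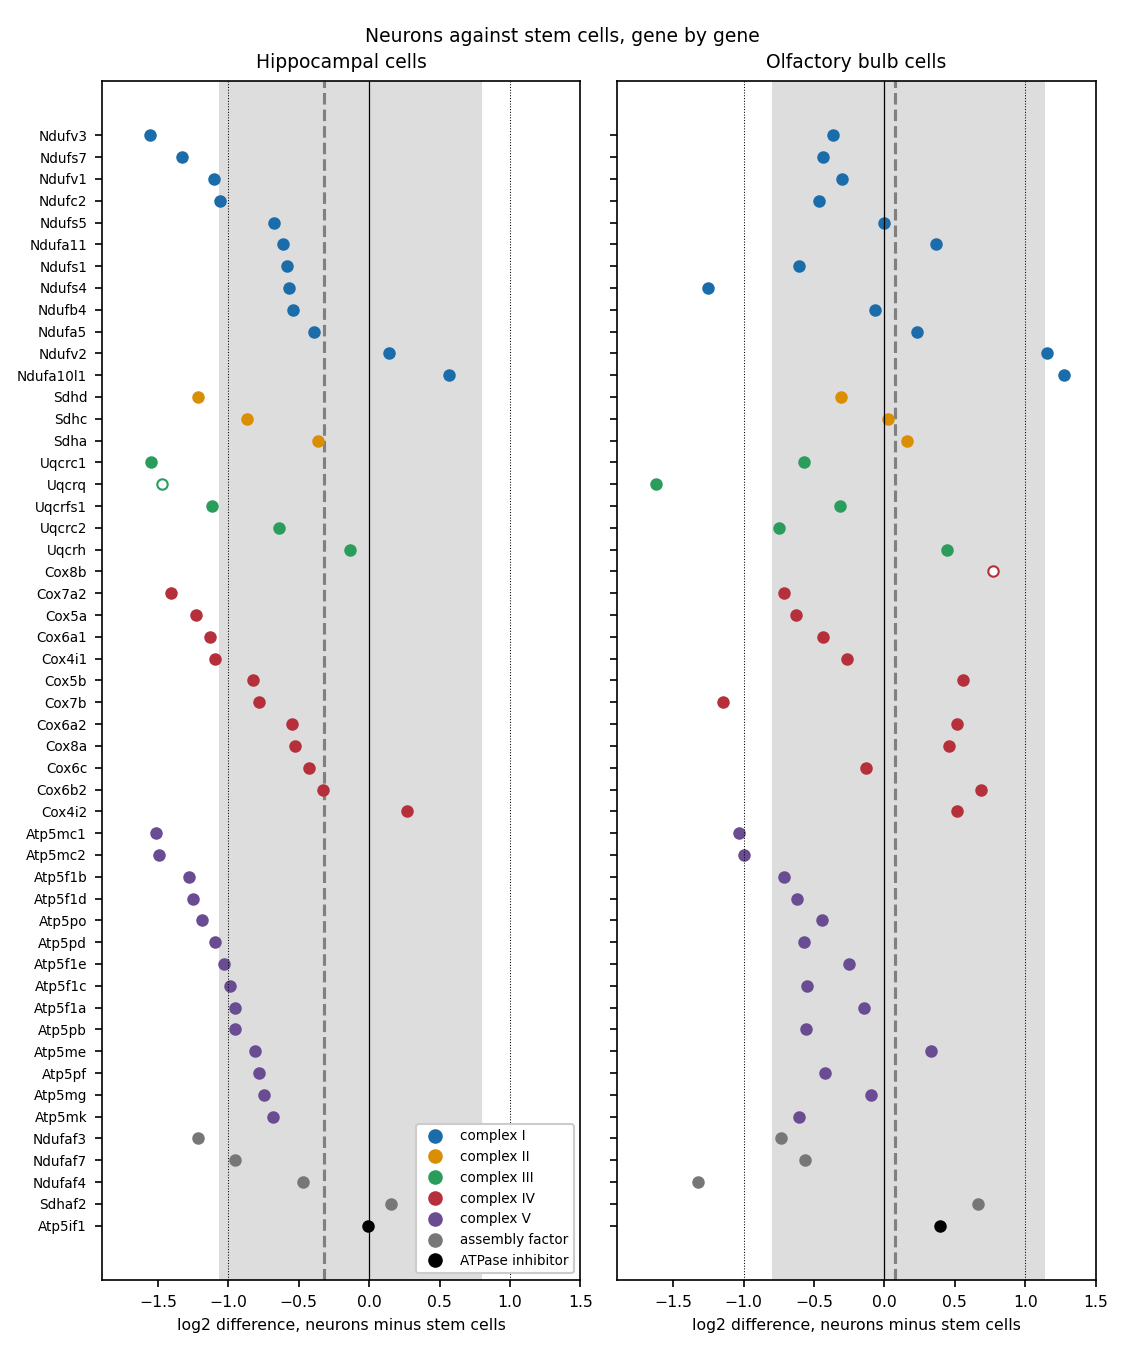
Log2 difference between the neuron and the stem cell array for the respiratory chain genes named on the left, in hippocampal (left) and olfactory bulb cells (right), with genes ordered within each complex by the hippocampal difference. The grey band is the interquartile range of all genes measured, the dashed line their median, the dotted lines mark 2-fold, and open circles are bounds. In olfactory bulb cells 5 points lie at or beyond -1, all complex V points of the hippocampal panel lie between -1.52 and -0.68, and Ndufv2 and Ndufa10l1 lie highest among the complex I genes in both panels.

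The shift went with spot signal across all genes. When the genes measured were divided into 5 equal groups by mean spot signal, the brightest group had a median difference of -0.84 between hippocampal neurons and stem cells, with 41.4% lower 2-fold or more, and the dimmest group had a median of 0.46, with 15.5% lower. Of the 51 respiratory chain genes, 39 were in the brightest group, with a median of -0.96, inside that group's interquartile range of -1.34 to -0.21. Of these 39 genes, 18 (46.2%) were lower 2-fold or more and 0 were higher, where 41.4% and 5.71% of the brightest group were. That group's interquartile range spanned 1.12 log2 units, narrower than the 1.85 of all genes. In olfactory bulb cells the brightest group had a median of -0.46, with 27.8% lower, 10.6% higher and an interquartile range of 1.31 log2 units. The 39 respiratory chain genes in it had a median of -0.32, with 2 (5.13%) lower and 2 higher. Whether signal-dependent behaviour of the arrays has a part in the shift was not tested.

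**Figure D3:**
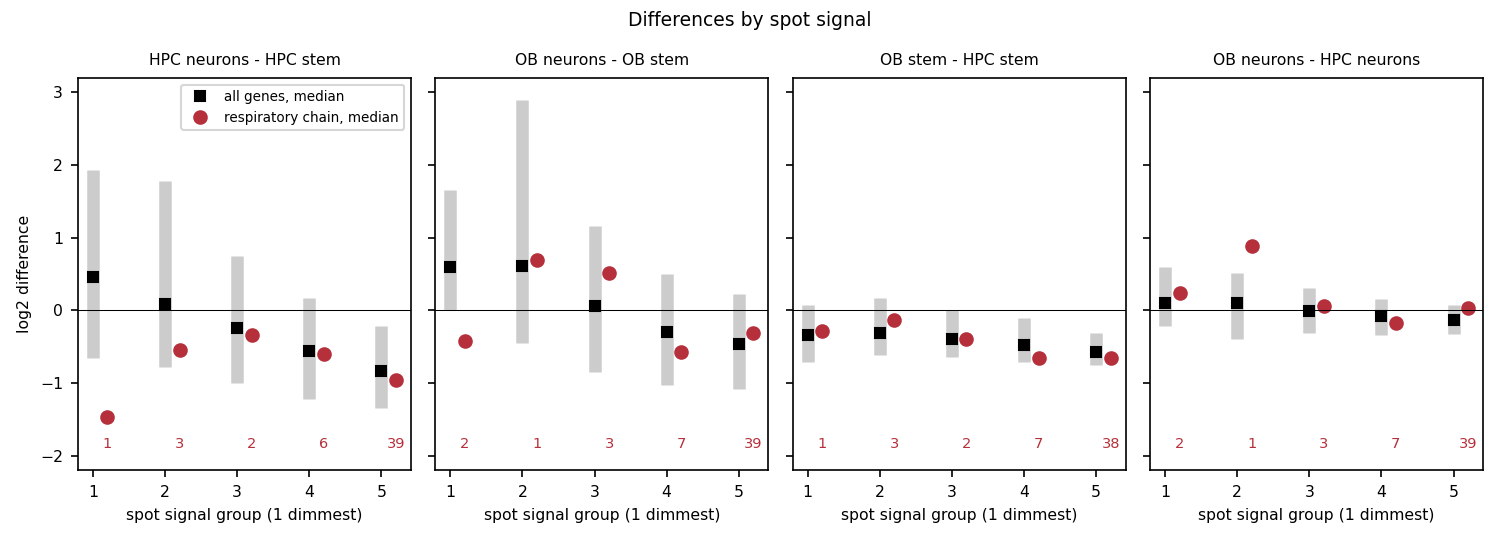
Log2 differences in 5 groups of genes by mean spot signal (1 dimmest, 5 brightest) in the 4 comparisons. Black squares are medians of all genes and grey bars their interquartile range; red circles are medians of the respiratory chain genes, whose number in each group is printed at the bottom. In the brightest group, which holds 38 or 39 of the respiratory chain genes, the red circle lies inside the grey bar in every comparison, and both state comparisons slope from higher values in dim genes to lower ones in bright genes.

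The scale set how many genes passed 2-fold. With each array scaled to its median, 38 respiratory chain genes were lower in hippocampal neurons and 21 in olfactory bulb neurons. With quantile normalization 3 and 3 were lower, and with 7 spike-in probes 6 and 37. The shares of all genes lower under these scalings are not given here. Relative to the median of all genes, the respiratory chain lay at -0.55 and -0.47 with both median and spike-in scaling, and at -0.081 and 0.024 with quantile normalization. The same choices moved all genes: of those called in hippocampal cells, 44.9% were higher in neurons as scaled here, 28.8% with median scaling and 66.5% with spike-in scaling, and in olfactory bulb cells 57.4%, 37.0% and 25.4%. Lower at 2-fold or more under every alternative were Ndufv3 and Uqcrc1 in hippocampal neurons and Ndufaf4 in olfactory bulb neurons. A larger group kept its sign: under all alternatives 33 genes were below 0 in hippocampal cells, as were 23 in the olfactory bulb comparison. The share of all genes that did so is not given here. Not every alternative can change a sign. The authors' table and the changed filters leave a difference measured on both arrays as it is, and averaging probes affects only the 6 genes with several. Differences between genes on the same arrays, given below, do not move with a constant scale factor.

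Complex I, the NADH dehydrogenase, is the largest complex of the chain, and its genes spread from -1.56 to 0.57 in hippocampal and from -1.25 to 1.28 in the olfactory bulb comparison, the widest range of the 5 complexes in both. Median differences of the 13 genes were -0.61 in hippocampal and -0.30 in olfactory bulb cells. Ndufv3, an accessory subunit of the NADH-binding module, had levels of 4.16 and 3.15 on the hippocampal and olfactory bulb stem cell arrays and 2.61 and 2.78 on the corresponding neuron arrays. Both neuron arrays lay below both stem cell arrays, and hippocampal stem cells stood highest. Its neuron minus stem cell difference was -1.56 (2.94-fold lower) in hippocampal and -0.37 in olfactory bulb cells. Ndufs7, an iron-sulfur subunit near the ubiquinone site, had differences of -1.33 and -0.44. The flavoprotein subunit Ndufv1, which binds NADH, had -1.10 and -0.30, and the accessory subunit Ndufc2 had -1.06 and -0.46. The other Ndufc2 probe had -0.72 and -0.06, short of 2-fold in hippocampal cells as well.

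Ndufv2 and Ndufa10l1 ran the other way within complex I. Ndufv2, the iron-sulfur partner of Ndufv1 in the NADH-binding module, had levels of 5.40 and 4.73 on the stem cell arrays and 5.54 and 5.89 on the neuron arrays of hippocampus and olfactory bulb. Neuron arrays were above stem cell arrays in both sources, by 0.14 and 1.16. Ndufa10l1, named as a copy of the accessory subunit gene Ndufa10, had 3.51 and 2.89 in stem cells and 4.08 and 4.17 in neurons, differences of 0.57 and 1.28. Its 3 probes differed by no more than 0.18 in any comparison. Ndufa10 itself had no named probe, and a probe may bind the RNA of both genes. Set against Ndufv1 on the same arrays, Ndufv2 moved by 1.24 more in hippocampal and 1.46 more in olfactory bulb cells, and Ndufa10l1 by 1.67 and 1.58 more. Over the alternatives these contrasts stayed between 1.24 and 1.79. Ndufa10l1 was above 0 under every scaling in both sources, whereas Ndufv2 in hippocampal cells turned to -0.32 with median scaling.

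Ndufs4, an accessory subunit needed for a stable complex, was the complex I gene with the largest olfactory bulb decrease. It had levels of -1.25 and -0.89 in hippocampal and olfactory bulb stem cells and -1.82 and -2.14 in neurons. The neuron arrays were the lower ones in both sources, with differences of -0.57 and -1.25. Another 5 genes, Ndufs5, Ndufa11, Ndufs1, Ndufb4 and Ndufa5, lay between -0.68 and -0.39 in hippocampal cells and between -0.61 and 0.36 in olfactory bulb cells, none at 2-fold.

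Complex II, succinate dehydrogenase, is the only complex of the chain that is also an enzyme of the citric acid cycle. Sdhd, which anchors the enzyme in the membrane, had levels of 6.04 and 5.69 in hippocampal and olfactory bulb stem cells and 4.82 and 5.38 in neurons, and hippocampal neurons were the lowest of the 4 arrays. Differences were -1.22 and -0.31. The other anchor subunit, Sdhc, had -0.87 and 0.02, and the catalytic flavoprotein Sdha had -0.37 and 0.16. Sdhb, the iron-sulfur subunit, had no named probe.

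Complex III, the cytochrome bc1 complex, had the lowest median of the 5 complexes in hippocampal cells, -1.12, with -0.57 in olfactory bulb cells over its 5 genes. Uqcrc1, a core subunit, had levels of 3.89 and 2.79 in hippocampal and olfactory bulb stem cells and 2.34 and 2.22 in neurons. Hippocampal stem cells stood above the other 3 arrays, and the differences were -1.55 (2.92-fold lower) and -0.57. Its companion core subunit Uqcrc2 had more even levels, 4.79 and 4.83 in stem cells and 4.15 and 4.08 in neurons, with differences of -0.64 and -0.75. The Rieske iron-sulfur protein Uqcrfs1 had -1.12 and -0.32, and the hinge protein Uqcrh had -0.13 and 0.45. Uqcrq, a small subunit named for ubiquinone binding, was close to background, with levels of -4.22 and -4.50 in stem cells and -5.80 and -6.13 in neurons. It was at least 2.77-fold lower in hippocampal neurons, where it was not well above background, and 3.08-fold lower in olfactory bulb neurons, a log2 difference of -1.62 that shrank to -0.44 with normexp background correction.

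Complex IV, cytochrome c oxidase, holds the isoforms. The 11 genes measured in hippocampal cells had a median of -0.78, and the 12 in olfactory bulb cells a median of 0.16, with 6 below and 6 above 0. Cox4i1, the general isoform of the regulatory subunit 4, had levels of 5.68 and 5.001 in hippocampal and olfactory bulb stem cells and 4.58 and 4.73 in neurons, differences of -1.10 and -0.27. Cox4i2, the isoform known from lung and from cells in low oxygen, had levels of 0.17 and -0.02 in stem cells and 0.44 and 0.49 in neurons, differences of 0.27 and 0.52. Cox4i2 differed by less than 2-fold in both sources, and its sign turned to -0.19 with median scaling in hippocampal and -0.51 with spike-in scaling in olfactory bulb cells. Against Cox4i1 on the same arrays, however, it was higher in neurons by 1.37 in hippocampal and 0.79 in olfactory bulb cells, and by 0.69 and 0.46 with quantile normalization, the lowest of the alternatives.

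The other isoform pairs were less clear. Cox6a1, the general isoform of subunit 6a, had levels of 9.24 and 8.47 in stem cells and 8.10 and 8.03 in neurons, with differences of -1.13 and -0.44. Cox6a2, the heart and muscle isoform, had -1.10 and -1.69 in stem cells and -1.65 and -1.17 in neurons, with differences of -0.55 and 0.52. The contrast of the pair was 0.58 and 0.95, but quantile normalization turned the hippocampal contrast to -0.55. Cox8a, the general isoform of subunit 8, had differences of -0.52 and 0.46. Its muscle isoform Cox8b was at least 0.77 log2 units higher in olfactory bulb neurons than in olfactory bulb stem cells. The value is a bound because the stem cell spot was not well above background, and it fell to 0 with quantile normalization. Cox6b2, the testis isoform of subunit 6b, had -0.33 and 0.69. Cox6b1, Cox7a1, Cox7a2l, Cox7b2, Ndufa4 and Ndufa4l2 had no named probe, so these pairs could not be compared.

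Of the other complex IV genes, Cox7a2, the liver isoform of subunit 7a, had the largest hippocampal decrease, -1.41, with -0.72 in olfactory bulb cells. Cox5a, where a thyroid hormone metabolite is known to bind, had -1.23 and -0.63. Cox5b, the zinc-binding subunit beside it, had levels of 5.93 and 5.05 in hippocampal and olfactory bulb stem cells and 5.10 and 5.60 in neurons. Neurons were thus the lower array in hippocampal cells, with a difference of -0.83, and the higher array in olfactory bulb cells, by 0.56, which turned to -0.47 with spike-in scaling. Cox7b, a small membrane subunit, had levels of 5.21 and 5.48 in stem cells and 4.43 and 4.34 in neurons, differences of -0.78 and -1.15. Cox6c, another small membrane subunit, had -0.43 and -0.13.

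Complex V, the ATP synthase, had the narrowest interquartile range of the 4 complexes with 5 or more genes, in both sources. All 14 genes lay below 0 in hippocampal cells (9 with quantile normalization, where Atp5mg, Atp5mk, Atp5me, Atp5pf and Atp5pb turned), with a median of -1.01, a range of -1.52 to -0.68 and an interquartile range of 0.39. In olfactory bulb cells 13 of 14 lay below 0, with a median of -0.56 and an interquartile range of 0.33. Atp5mc1 and Atp5mc2, which encode the identical mature c subunit of the rotor ring from different precursors, had the largest differences in both sources. Atp5mc1 had levels of 7.42 and 6.49 in hippocampal and olfactory bulb stem cells and 5.90 and 5.46 in neurons, differences of -1.52 (2.86-fold lower) and -1.03 (2.05-fold lower). Atp5mc2 had 8.40 and 7.60 in stem cells and 6.90 and 6.60 in neurons, differences of -1.50 and -0.996, the latter just short of 2-fold at 1.99-fold lower. On both genes the neuron arrays were below the stem cell arrays in each source. With the brightest probes the pair moved together to within 0.02 in hippocampal and 0.04 in olfactory bulb cells. The other Atp5mc2 probe had differences of -1.71 and -1.39, past 2-fold in both sources. With a gene's probes averaged, the contrast of Atp5mc2 against Atp5mc1 was -0.087 in hippocampal and -0.16 in olfactory bulb cells.

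The catalytic F1 head followed. Its beta subunit Atp5f1b, which forms ATP, had -1.28 and -0.72, the delta subunit Atp5f1d of the central stalk had -1.25 and -0.62, and the epsilon subunit Atp5f1e had -1.03 and -0.25. The alpha subunit Atp5f1a and the gamma subunit Atp5f1c, the rotating shaft, stayed just inside 2-fold in hippocampal neurons with -0.96 and -0.99. Of the peripheral stalk, Atp5po (OSCP) had -1.19 and -0.44 and Atp5pd had -1.10 and -0.57, while Atp5pb and Atp5pf had -0.96 and -0.78 in hippocampal cells. Atp5me, subunit e, which helps join ATP synthases into dimers, was the exception in olfactory bulb cells. Its levels were 8.23 and 7.40 in hippocampal and olfactory bulb stem cells and 7.42 and 7.73 in neurons, differences of -0.81 and 0.33, and against Atp5mc1 on the same arrays it was higher in neurons by 0.71 and 1.36. The other dimer-linked subunits, Atp5mg and Atp5mk, had -0.75 and -0.68 in hippocampal cells, and -0.10 and -0.61 in olfactory bulb cells, in that order.

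These 3 complex V genes, the c subunit pair and Atp5me, are shown with their promoters because they mark the extremes of the complex in olfactory bulb cells. The sequences are the 250 bases before the annotated start, 5′ to 3′ on the gene's strand, from RefSeq on the assembly GRCr8. Capitals mark 3 motifs of factors known to regulate nuclear respiratory genes, searched on both strands: GCATGCG for the core of the NRF1 site, CCGGAAG for GABP and other ETS factors, and AAGATGG for YY1. The NRF1 core is close to a palindrome, so matches on the opposite strands overlap each other; motifs of different factors do not overlap in these 3 sequences.
Atp5mc1 (chr10:81523346-81523595, minus strand): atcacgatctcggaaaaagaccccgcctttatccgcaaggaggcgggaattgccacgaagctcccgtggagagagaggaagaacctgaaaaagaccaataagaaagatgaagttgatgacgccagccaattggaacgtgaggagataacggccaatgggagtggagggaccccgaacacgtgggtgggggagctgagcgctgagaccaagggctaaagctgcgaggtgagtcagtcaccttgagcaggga
Atp5mc2 (chr7:135678219-135678468, minus strand): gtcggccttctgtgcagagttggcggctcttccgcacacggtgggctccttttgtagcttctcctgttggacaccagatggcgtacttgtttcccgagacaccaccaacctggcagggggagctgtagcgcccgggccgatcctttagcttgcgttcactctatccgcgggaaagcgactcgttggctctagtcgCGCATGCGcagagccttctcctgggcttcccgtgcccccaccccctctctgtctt
Atp5me (chr14:1464610-1464859, plus strand): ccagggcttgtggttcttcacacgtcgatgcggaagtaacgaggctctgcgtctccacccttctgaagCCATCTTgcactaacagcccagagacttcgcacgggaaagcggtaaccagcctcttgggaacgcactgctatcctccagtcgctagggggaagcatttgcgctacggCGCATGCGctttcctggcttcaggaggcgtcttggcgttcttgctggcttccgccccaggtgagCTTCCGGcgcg
The Atp5mc1 sequence holds none of the 3 motifs. In Atp5mc2 the NRF1 core matches on both strands, from 55 bases before the gene's start. Atp5me holds all 3, with the YY1 motif, on the opposite strand, 182 bases, the NRF1 core, on both strands, 75 bases and the GABP motif, on the opposite strand, 11 bases before the start. Over the 47 respiratory chain genes with a window in the table (250 bases before to 50 after the start), the NRF1 core was in 9 (19.1%), against 3.33% of 33469 windows and 4.51% of the 7258 windows of genes named on the array. The GABP motif was in 15 (31.9%), against 8.75% and 12.2%, and the YY1 motif in 9 (19.1%), against 7.01% and 6.92%. The 9 genes with the NRF1 core were Atp5mc2, Atp5me, Atp5mg, Atp5pf, Atp5po, Cox8c, Ndufa11, Ndufaf4 and Uqcrc1, and the olfactory bulb differences of the 8 measured ones lay between -1.32 and 0.36. A match describes letters in this window and shows no binding.

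The assembly factors are not part of the finished complexes. Ndufaf3 and Ndufaf4, which work together early in the building of complex I, were both lower in neurons. Ndufaf3 had differences of -1.22 in hippocampal and -0.73 in olfactory bulb cells, an order that turned with spike-in scaling, to -0.78 and -1.76. Ndufaf4 had levels of 1.64 and 2.25 in hippocampal and olfactory bulb stem cells and 1.17 and 0.92 in neurons, with differences of -0.47 and -1.32 (2.50-fold lower). The 3 Ndufaf4 probes spread over 0.74 in the hippocampal and 0.39 in the olfactory bulb comparison, the widest of any respiratory chain gene with several probes in the former. The dimmer Ndufaf4 probes had -0.95 and -1.21 in hippocampal cells and -1.71 each in olfactory bulb cells. Ndufaf7, a methyltransferase needed to build complex I, had -0.95 and -0.57. Sdhaf2, which adds the flavin to Sdha, had 0.15 and 0.66. Atp5if1, which blocks the ATP synthase from running in reverse, had levels of 5.76 and 5.42 in stem cells and 5.75 and 5.81 in neurons, differences of -0.01 and 0.39. In hippocampal cells it was above all 14 complex V subunits in difference, with -0.47 under median scaling and 0.76 under quantile normalization as its extremes.

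Across both sources, 36 of 51 genes (70.6%) were below 0 in both comparisons, against 44.1% of all genes. Another 11 (21.6%) were below 0 in hippocampal and above 0 in olfactory bulb cells, 4 were above 0 in both, and 0 went the other way. Uqcrq and Atp5mc1 were lower 2-fold or more in both, which is 2 of 51 genes against 16.8% of all genes, and 0 were higher in both, against 18.5%. The difference between the changes, olfactory bulb minus hippocampal, had a median of 0.63 over the 50 genes measured on all arrays, against 0.34 over all genes. It was above 0 for 45 genes (90.0%), against 71.1% of all genes. This sign depends on the scaling of the arrays: with spike-in scaling the median was -0.84 and 0 of the 50 genes lay above 0, against 5.37% of all genes. With quantile normalization 39 of the 50 lay above 0, with a median of 0.24. With the 75th percentile scaling it reached 1 or more for 6 genes (12%), against 13.8% of all genes, and -1 or less for 0, against 6.77%. The 6 were Cox5b, Ndufv3, Atp5me, Cox6a2, Cox6b2 and Ndufv2. Ndufaf4 and Ndufs4, at -0.85 and -0.68, had the changes that were lower in olfactory bulb cells by the most. This difference has no residual degrees of freedom and was not tested.

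**Figure D4:**
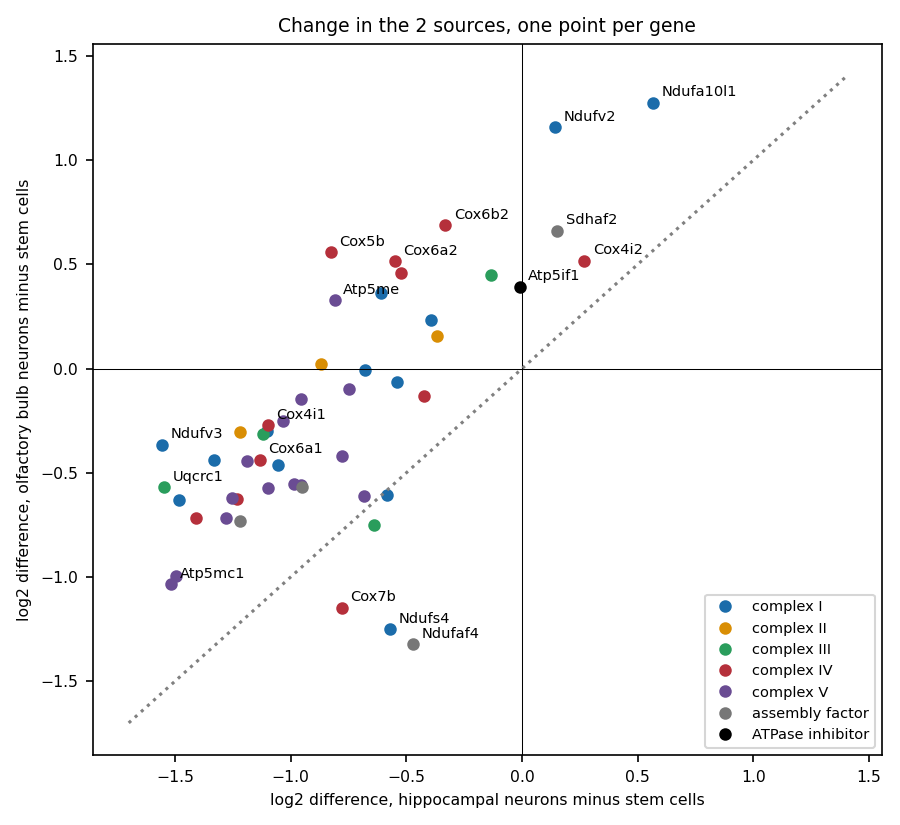
Each point is a respiratory chain gene measured in both sources, with its neuron minus stem cell log2 difference in hippocampal (x) and olfactory bulb cells (y); the dotted line marks equal changes. Of the genes measured on all 4 arrays, 45 lie above the line with the 75th percentile scaling shown, and 0 would with spike-in scaling. Cox7b, Ndufs4 and Ndufaf4 lie below it at the bottom, and Ndufa10l1 and Ndufv2 at the upper right.

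The sources were also compared directly within each state. Among stem cells, the olfactory bulb array was below the hippocampal array for 47 of 51 genes, as it was for 4539 of all 6028 genes. The median was -0.62, against -0.43 for all genes. At 2-fold or more, 2 genes were lower, Uqcrc1 at -1.10 and Ndufv3 at -1.02, where 6.98% of all genes were, and 0 were higher, where 4.16% were. In the brightest of the 5 signal groups 3.90% of all genes were lower and 1.24% higher. Of the 38 respiratory chain genes in that group, 0 were lower or higher. Cox7b, Ndufs4, Ndufaf4 and Uqcrc2 were the 4 above 0, at 0.27, 0.36, 0.60 and 0.04. Among neurons the sources were close to equal: the median of 52 genes was 0.01 against -0.01 for 7000 genes, with an interquartile range of 0.24 against 0.63. There 0 genes were higher or lower at 2-fold, where 7.66% of all genes were higher and 8.00% lower, and the values ran from -0.44 for Atp5mc1 to 0.89 for Cox6b2. In the brightest signal group, which held 39 of the 52 genes, 1.86% of all genes were higher and 1.79% lower. The interquartile range of all genes in that group was 0.40. The stem cell shift depended on the scale, since it was 0.23 with spike-in scaling, which also turned the share of all called genes that were higher in olfactory bulb stem cells from 37.4% to 93.9%. Among neurons spike-in scaling gave a median of -0.59, and the share of all called genes higher in olfactory bulb neurons went from 48.9% to 14.5%. The source comparisons share arrays with the state comparisons, so the values are not independent of them.

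The only test the design allowed was an additive limma fit of state and source over the 4 arrays, with 1 residual degree of freedom per gene shared across genes. Of 52 respiratory chain genes tested, 44 had a negative state term. With limma's Benjamini-Hochberg adjustment over all genes, 1 was lower in neurons, where 12.1% of all genes were, and 1 was higher, where 19.5% were. Uqcrq had a state term of -1.60 with a standard error of 0.424 (limma adjusted p = 0.0304), lower in neurons in 2 of 2 sources. Cox8b had 2.21 with a standard error of 0.477 (limma adjusted p = 0.0145), from signals that were not well above background on 3 of the 4 arrays. Cox8b entered the fit only through the olfactory bulb neuron array, where its level was highest, so its adjusted p is not a valid test of state. The median standard error of the respiratory chain genes was 0.443. Unadjusted, 4 of 52 had a limma p below 0.05, where 12.1% of all genes were lower and 19.5% higher even after adjustment. Atp5mc1 came next with a term of -1.28 (limma adjusted p = 0.0667), and Ndufa10l1 had 0.92 (limma adjusted p = 0.162). Both called genes were among the 3 that were not well above background on some array. Median scaling called 13 respiratory chain genes and spike-in scaling 0. The shares of all genes for these 2 counts and for the negative state terms are not given here.

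Other genes of mitochondrial energy metabolism, taken from lists by function, give the setting. At 2-fold or more, 26.8% of all genes were lower in hippocampal and 20.0% in olfactory bulb neurons, and 21.9% and 26.9% were higher, against which the counts of these lists stand. The mitochondrial ribosome, which makes the subunits encoded in mitochondrial DNA, had the lowest medians, -1.26 in hippocampal and -0.85 in olfactory bulb cells, with 17 and 8 of 24 genes lower 2-fold or more and 0 higher. Mrpl38, a protein of its large subunit, had -2.74 and -2.56. Among 11 assembly factors, the 4 above included, 5 were lower in each source, with medians of -0.95 and -0.73. Bcs1l, which inserts the Rieske protein into complex III, had -2.102 and -1.81, Ecsit, a complex I assembly factor, had -1.48 and -1.12, and Cox17, the copper carrier to complex IV, had -1.25 and -1.16. Of 9 regulators of mitochondrial biogenesis, 3 and 4 were lower and 1 and 0 higher. Polg, the polymerase of mitochondrial DNA, had -2.11 and -1.84, and Tfam, which packages that DNA, had -1.63 and -1.71. Gabpb1, a subunit of GABP, had -1.05 and -1.34. Ppargc1a, the coactivator PGC-1alpha, was higher in neurons, by at least 1.57 in hippocampal and by 0.94 in olfactory bulb cells.

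Genes that feed the chain did not move as 1 group. Of 15 citric acid cycle and pyruvate dehydrogenase genes, 6 were lower and 1 higher in hippocampal neurons, and 3 lower and 0 higher in olfactory bulb neurons. Idh3a, a subunit of the NADH-producing isocitrate dehydrogenase, had -1.96 and -2.11, and Dld, the shared dihydrolipoamide dehydrogenase, had 1.15 and 0.20. Of 15 genes of electron carriers and ubiquinone synthesis, 3 were lower and 2 higher in hippocampal neurons, and 1 lower and 3 higher in olfactory bulb neurons. Enzymes that pass electrons to ubiquinone without complex I did not move together. Gpd2, the mitochondrial glycerol-3-phosphate dehydrogenase, had 2.69 and 2.65, and Sqor, the sulfide:quinone oxidoreductase, had 2.87 and 3.22. Dhodh, the dihydroorotate dehydrogenase of pyrimidine synthesis, had -0.998 and -0.20, and Etfdh, which takes electrons from fatty acid oxidation, had 0.12 and 0.30. Coq7, an enzyme of ubiquinone synthesis, had -1.83 and -1.04, and cytochrome c (Cycs) had -0.66 and -0.60. Among carriers, import proteins and chaperones, 8 of 17 and 4 of 18 were lower and 1 and 2 higher. The inner-membrane carrier Ucp2 was higher in neurons by at least 5.70 and 5.05, and the scaffold prohibitin Phb1 had -2.07 and -1.17. Of 19 glycolysis genes, 6 were lower and 1 higher in hippocampal neurons, with a median of -0.75, and 3 lower and 2 higher in olfactory bulb neurons, with a median of -0.39. Of 8 mitochondrial antioxidant genes, 3 were lower and 1 higher in hippocampal neurons (median -0.04), and 1 lower and 3 higher in olfactory bulb neurons (median 0.57).

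**Figure D5:**
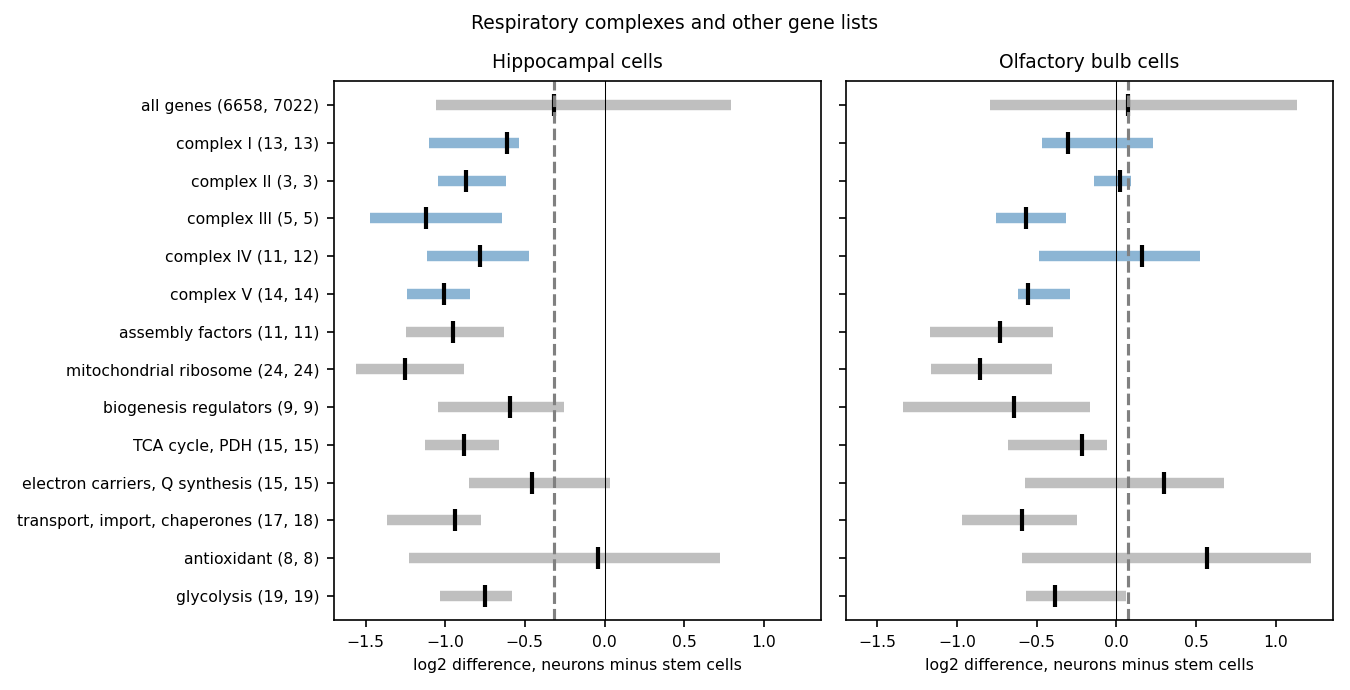
Neuron minus stem cell log2 differences of gene groups in hippocampal (left) and olfactory bulb cells (right). Bars are interquartile ranges over genes and black ticks medians, blue for the complexes and grey for the other lists, with the number of genes measured in each source in parentheses; the dashed line is the median of all genes. The mitochondrial ribosome has the lowest median in both panels, and the complexes lie between -1.12 and -0.61 in hippocampal cells.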

How the data were processed

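Total RNA of the 4 cell groups was measured on 4 Agilent 1-colour arrays on 2 slides. The deposited scanner files hold spot fluorescence intensity, which the authors obtained with Agilent Feature Extraction 10.5.1.1, per the submitters' processing notes and the file headers, with background subtracted and no normalization between arrays. The authors' deposited table of intensity values was identical (largest difference 0). The headers name rn4 as the probe build.

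Here the processed signal was taken as log2 minus each array's 75th percentile. From 41012 non-control probes, 254 were removed because every spot was an outlier on some array; 0 spots were saturated. Accessions, without versions, were matched to RefSeq genes of GRCr8, used for names: 10783 of the 40758 probes kept had 1 symbol and 29975 had none. The brightest probe stood for a gene. A comparison used genes well above background on either array; a side that was not was set to the higher of its own signal and the lowest signal well above background on that array, and the difference is a bound, given as "at least". Differences were called from 1 log2 unit (2-fold). With 1 array per group the only test was limma 3.58.1 in R 4.3.3 (state and source, adjusted p under 0.05), which was tested on simulated data. Its p-values take the difference between the sources' changes as the spread, not spread between cultures, and use measured signals with no floor.

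Of the 53 genes, 29 share their name with a pseudogene or copy in RefSeq (Atp5mc1 with 4, Atp5mc2 with 6, Ndufaf4 with 5, Ndufv3 with 2, Ndufv2, Ndufs4 and Cox4i1 with 1 each; Uqcrc1 and Uqcrq with 0), and a probe may bind RNA of both. Named are all genes past 2-fold, isoform pairs, genes not well above background and up to 4 genes per other list. The values of 1 gene are not reported here; it counts in the totals. The genes, lists and rules were chosen with earlier results of these data known. The 8 alternatives were median, quantile and spike-in scaling, normexp background correction (offset 50, on median spot signals), no filter on dim probes, genes well above background on both arrays, averaging a gene's probes and the authors' table. The number of arrays limits the precision; spread between cultures is unknown.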

Additional observations from a re-analysis of the deposited data

Results flagged for a closer look

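For 6 respiratory chain genes the neuron arrays moved in opposite directions in the 2 sources, lower in hippocampal and higher in olfactory bulb neurons, by at least 0.25 log2 units each. That is 12% of the 50 measured on all 4 arrays, against 6.22% of 5495 genes measured so. With 1 array per group the difference was not tested. The changes differed by 1.38 for Cox5b, 1.14 for Atp5me, 1.07 for Cox6a2, 1.02 for Cox6b2, 0.98 for Cox8a and 0.97 for Ndufa11. Genes picked for opposite signs differ between the sources by construction, so these values are not set against all genes. Complex IV supplied 4 of the 6 genes and 11 of the 50 measured on all 4 arrays. Whether it supplied more of the 6 than its share was not tested. A constant scale factor can turn these signs: with spike-in scaling the olfactory bulb difference was -0.47 for Cox5b, -0.70 for Atp5me, -0.51 for Cox6a2, -0.34 for Cox6b2, -0.57 for Cox8a and -0.66 for Ndufa11. With that scaling the order of the sources turned for all 6 genes, since the difference between the changes lay between -0.49 and -0.082, and Cox6b2 was at 0.11 in hippocampal cells. With median scaling the olfactory bulb difference was -0.21 for Atp5me, -0.17 for Ndufa11, -0.08 for Cox8a and -0.02 for Cox6a2. It was 0.02 for Cox5b and 0.15 for Cox6b2. Quantile normalization turned the hippocampal difference to 0.18 for Atp5me and 0.45 for Cox8a, and the other genes stayed below 0.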

How the results depend on the processing

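With median scaling, the median difference of respiratory chain genes became -1.33 in hippocampal and -0.88 in olfactory bulb cells, 38 and 21 genes were lower, 0 were higher in olfactory bulb neurons, the neuron source median turned to -0.077, and limma called 13 genes. With quantile normalization, the state medians were -0.21 and 0.024 (reversed for the olfactory bulb), or -0.081 and 0.024 relative to all genes, with 3 and 3 genes lower and 1 higher in hippocampal neurons. The olfactory bulb minus hippocampal median was then -0.15 in stem cells (0.10, reversed, relative to all genes, with 0 genes lower) and 0.13 in neurons, also relative to all genes. With spike-in scaling, the state medians were -0.43 and -1.37, with 6 and 37 genes lower, and 1 and 0 higher. The source medians turned to 0.23 in stem cells, with 0 genes lower and 3 higher, and -0.59 in neurons, with 1 lower, and limma called 0 genes. With normexp, the hippocampal state median relative to all genes was -0.38, 2 genes were lower in olfactory bulb neurons and 1 in olfactory bulb stem cells. With genes well above background on both arrays, the relative state medians were -0.36 and -0.23. With no filter on dim probes, 1 gene was higher in hippocampal neurons. The shares of all genes for these counts are not given here, and the cause of these changes was not tested. The authors' table moved no value, and the mean over probes moved 7 of 206 differences of single genes beyond the probe spread. Only the 6 genes with several probes can move when probes are averaged.

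Of the 21 genes lower in hippocampal neurons, 21 remained so with median scaling, 3 with quantile normalization, 6 with spike-in scaling and 17 with normexp. Signals of Cox8b on 3 arrays, Cox8c on 4 and Uqcrq on 1 were too close to background to give more than a bound or no value. Leaving out an array was not possible, since each group has 1. No paired analysis was possible because each group has 1 array and the labels give no replicate numbers.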
